A study of Mus musculus with 6 samples.

Results

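The 37 genes described here carry out antigen presentation by MHC class I and class II molecules, together with Cd1d1, the class I-like molecule that presents lipids. They were chosen by name, as the chains of the molecules, the proteins that make, move, trim and load peptides, and the transcription factors of the MHC genes. The choice was made with earlier results of these data known. All 37 were found among the 26128 genes of the deposited count table. RNA had been sequenced from double negative T (DNT) cells of mice in 6 libraries, 3 of them from control cultures and 3 from cultures with IL-33, a cytokine of the IL-1 family. The labels name the spleen of adult C57BL/6 mice as the source, and the study's methods CD4+CD25- T cells from spleen and lymph nodes, which were converted in culture with mature dendritic cells of DBA/2 mice and IL-2. The converted cells were then sorted as CD3+ cells without NK1.1, CD4 or CD8. Cells of both groups were kept with anti-CD3/CD28 beads for 48 h, and the groups differed in the addition of IL-33 at 50 ng/ml. Whether the 3 libraries of each group were made from different mice, conversions or wells is not stated, so that p values measure only the spread between these libraries.

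MHC class I molecules, built of a heavy chain and β2-microglobulin, show peptides from inside the cell and are made by nearly all cells. The peptides are cut by the proteasome, carried into the endoplasmic reticulum by the TAP transporter, trimmed there and loaded with the help of chaperones. MHC class II molecules, built of an α and a β chain, show peptides from endocytosed proteins and are typical of dendritic cells, macrophages and B cells. Resting mouse T cells make little or none of them. The invariant chain (Cd74) guides class II molecules to the endosome, where cathepsin S cuts it and H2-DM exchanges its remnant for a peptide, while H2-O restrains H2-DM. NLRC5 drives the class I genes and CIITA the class II genes, and both act through the RFX complex on a promoter module of X and Y boxes.

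The promoter stretches below are shown because NLRC5, CIITA and the RFX subunits act on this module, parts of which were looked for in other members. They are 60 bases each from RefSeq (GRCm38.p6), read 5′ to 3′ on the strand of the gene. Capitals mark ATTGG, the core of the Y box, and TGACG, the core of the X2 box, where it lies 15 to 25 bases before ATTGG. The rest of the X box was neither searched for nor marked. The stretch of H2-Q4 also holds TGACG just after ATTGG, which is left in lower case. The first 5 hold both at a spacing of 19 or 20 bases, the next 2 are class I promoters without TGACG at this place, and the last 3 belong to class II genes.
B2m, chr2:122147589-122147648, plus strand: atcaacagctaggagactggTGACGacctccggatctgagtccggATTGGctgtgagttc
H2-K1, chr17:34000349-34000408, minus strand: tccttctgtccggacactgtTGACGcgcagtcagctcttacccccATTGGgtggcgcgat
H2-D1, chr17:35262973-35263032, plus strand: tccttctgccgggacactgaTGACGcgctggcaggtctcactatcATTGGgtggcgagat
H2-Q7, chr17:35439070-35439129, plus strand: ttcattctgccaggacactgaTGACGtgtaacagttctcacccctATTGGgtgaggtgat
H2-M3, chr17:37270168-37270227, plus strand: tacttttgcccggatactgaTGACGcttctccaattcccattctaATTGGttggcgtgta
H2-Q4, chr17:35379493-35379552, plus strand: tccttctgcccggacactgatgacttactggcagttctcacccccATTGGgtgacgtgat
H2-Q6, chr17:35424726-35424785, plus strand: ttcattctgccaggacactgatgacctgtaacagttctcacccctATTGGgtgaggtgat
H2-Aa, chr17:34287857-34287916, minus strand: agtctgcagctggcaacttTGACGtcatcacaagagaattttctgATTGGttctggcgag
H2-Eb1, chr17:34305763-34305822, plus strand: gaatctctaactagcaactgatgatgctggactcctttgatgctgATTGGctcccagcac
H2-Ob, chr17:34238803-34238862, plus strand: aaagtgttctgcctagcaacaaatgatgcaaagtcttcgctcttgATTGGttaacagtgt

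A promoter window from 250 bases before to 50 bases after the start was at hand for 29 of the 37 members. TGACG followed after 15 to 25 bases by ATTGG, read on either strand, was found in the windows of 6 of these 29, which are H2-K1, H2-D1, H2-Q7, H2-M3, B2m and H2-Aa. In all 32851 windows of 27025 genes the spaced pair occurred in 0.435%. TGACG alone, on either strand, was in the windows of 13 members and in 20.8% of all windows, and ATTGG alone in those of 23 members and in 37.4%. These matches are letters in a window and not measured binding.

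The libraries held 20256342 to 22336050 counts over genes, so that the limit of detection, taken as 3 counts, lay at 0.135 to 0.148 CPM (counts per 1000000). This limit and the intervals given below cover the counting of reads and the spread between libraries only. Of all genes, 14671 had enough counts to be tested with edgeR's quasi-likelihood test, and 13.6% of these were higher and 13.9% lower with IL-33 at an adjusted p (Benjamini-Hochberg over all genes tested) under 0.05. Past both this threshold and a fold change of 1.5 in either direction were 4.87%. T cell identity genes (13 of 13 listed, such as Cd3e, Lck and Zap70) summed to 2921 to 3094 CPM in control and 2953 to 3071 CPM in IL-33 libraries. Of these 13 genes 1 was called higher, Cd3g (log2 fold change of 0.13). Called lower were 4, namely Cd2 (-0.16), Cd5 (-0.43), Lck (-0.17) and Lat (-0.26). The sort was made with antibodies to the proteins before the 48 h culture, while the values here are RNA after it. Among the genes of the sort, Cd8a stood at 545 ± 13.6 CPM (SD, n = 3) in control and 400.2 ± 9.15 CPM (SD, n = 3) in IL-33 libraries, beside Cd4 at 5 to 22 counts. Cd8b1, at 9.68 ± 1.65 and 16.3 ± 2.07 CPM (SD, n = 3), was higher with IL-33, and Klrb1c, which encodes NK1.1, lower at 33.5 ± 2.57 and 25.6 ± 1.15 CPM (SD, n = 3).

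Transcripts of the class I pathway were abundant in these cells and those of the class II pathway were scarce. To compare levels between genes, CPM were divided by the exon length in kilobases, averaged over the 6 libraries. B2m came first at 3439 CPM per kb, followed by H2-K1 at 1253 and H2-D1 at 1203 CPM per kb. The library values of H2-K1 and H2-D1 overlapped, while all values of B2m lay above both. All 23 genes of the class I pathway stood in the first 23 places of the order of 37, down to H2-T24 at 20.1 CPM per kb. H2-Ab1, the β chain of the class II molecule I-A, was the highest class II gene at 10.7 CPM per kb, and its values overlapped those of Ctss at 9.97 CPM per kb. The last 4 places belonged to H2-Eb1 at 0.313, H2-Ob at 0.208, Ciita at 0.173 and H2-Aa at 0.0723 CPM per kb. Neighbours among these 4 overlapped in their library values, except that all values of H2-Aa lay below those of Ciita.

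**Figure D1:**
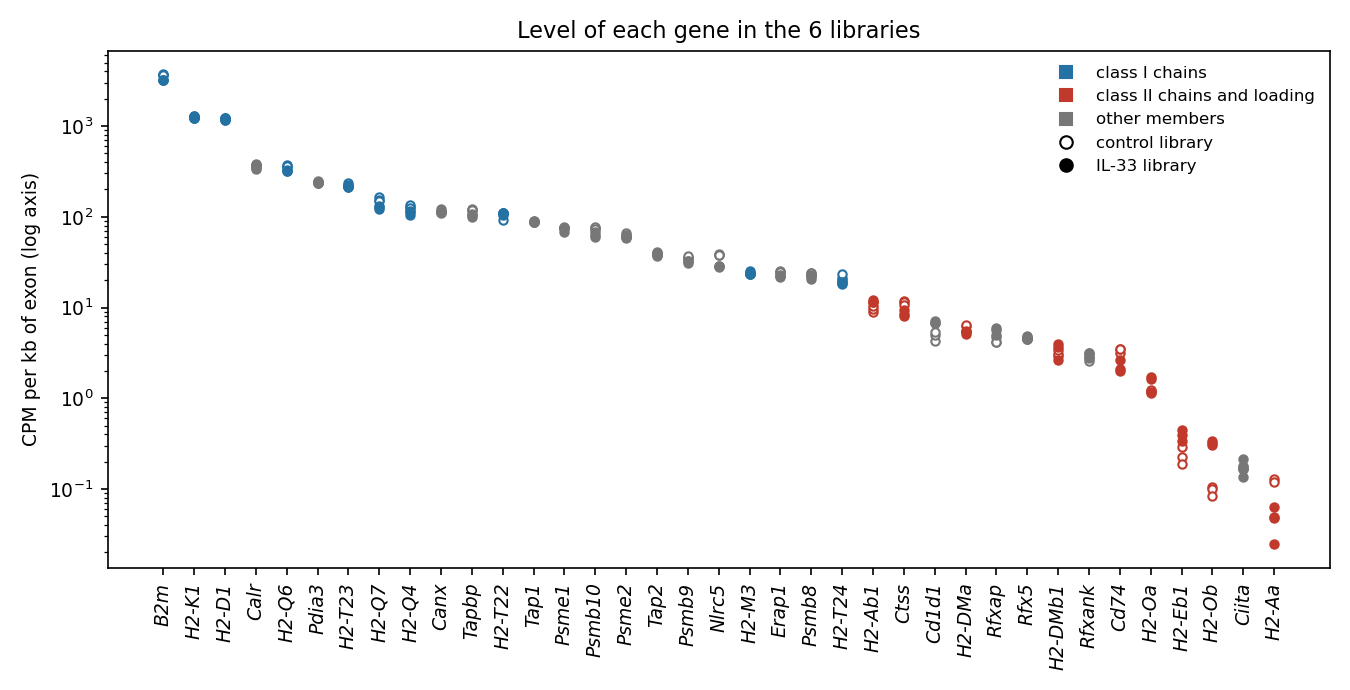
Levels of the 37 members in CPM per kilobase of exon, on a log axis, with an open point for each control library, a filled point for each IL-33 library and colour for class I chains, class II chains and loading, or other members. Class I genes fill the first 23 places, from B2m to H2-T24, and the lowest levels are those of Ciita and H2-Aa.

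With IL-33 most genes of the class I pathway fell slightly, while in the class II pathway some genes rose and others fell. Of the 36 members tested 20 were called, beside 27.5% of all genes. Among them 4 rose, which is 11.1% beside 13.6% of all genes, and 16 fell, which is 44.4% beside 13.9% of all genes. The median log2 fold change of the members was -0.06, and that of all genes tested was -6.3e-04. Only H2-Ob passed both thresholds among the members, beside 4.87% of all genes, and it had enough counts to be tested only through the IL-33 libraries. In the class I pathway 14 of 23 genes fell, none rose and 9 were not called, with a median of -0.11. In the class II pathway 2 of the 9 tested rose and 2 fell. The falls of class I genes ran from a log2 fold change of -0.06 (fold change of 0.959) to -0.44 (0.738), so that none reached the fold change threshold.

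**Figure D2:**
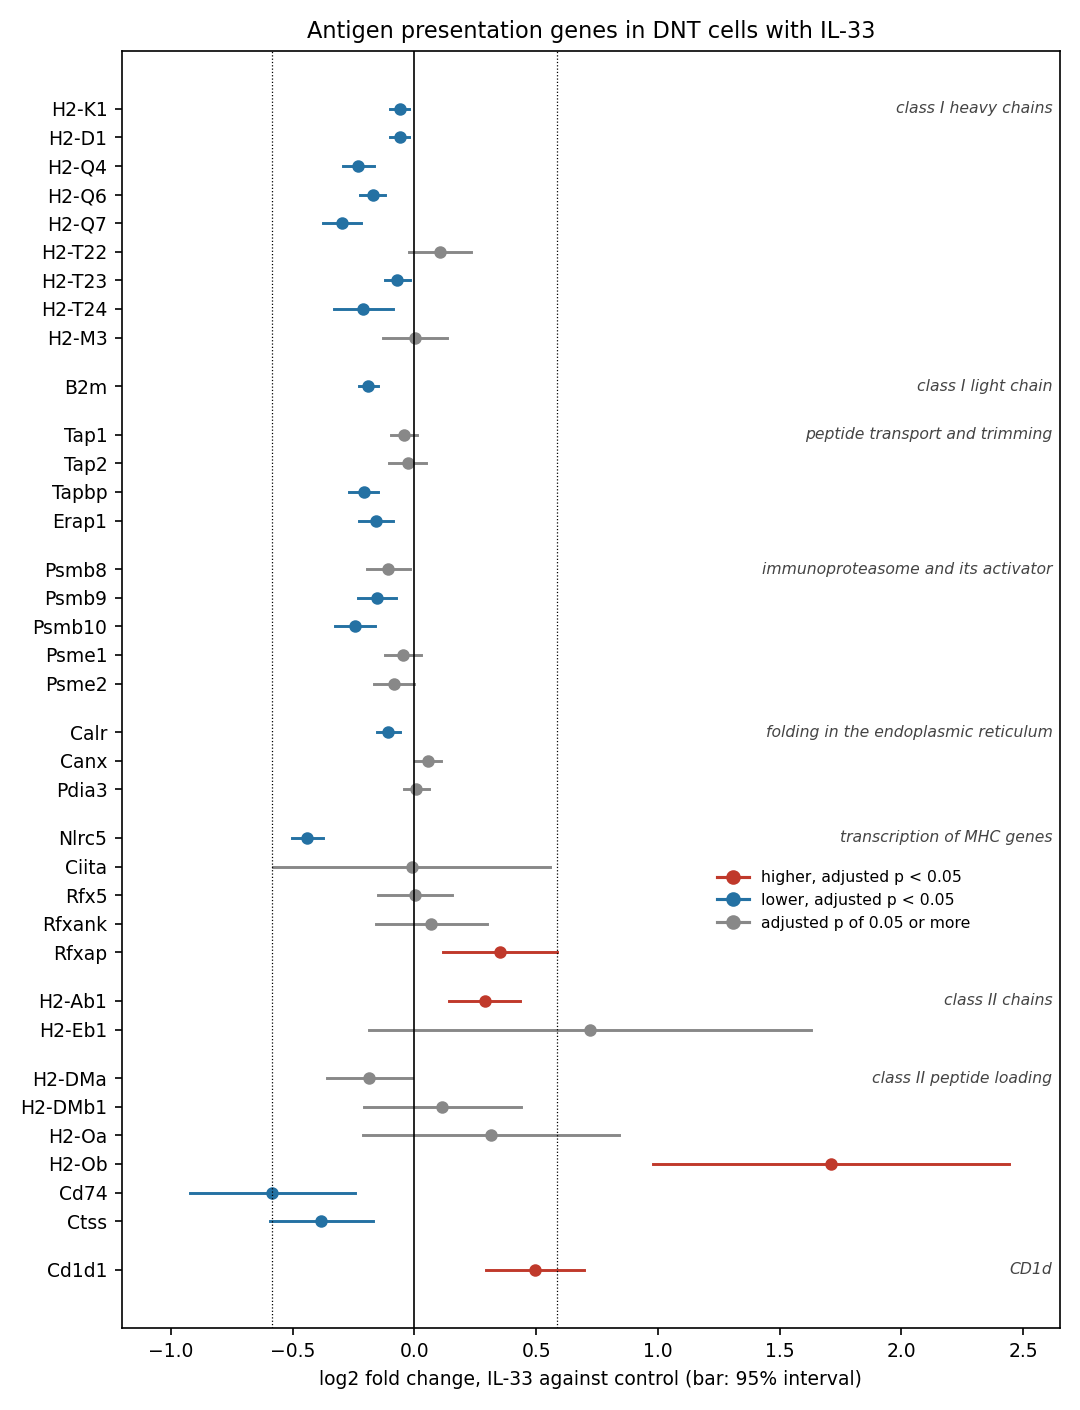
Log2 fold change of each tested member with IL-33 against control, with 95% intervals from edgeR, ordered by role and coloured by call at an adjusted p of 0.05, with dotted lines at a fold change of 1.5 in either direction. H2-Ob lies highest at 1.71 and Cd74 lowest at -0.58, and the called class I genes lie between -0.06 and -0.44.

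The members with at least 100 CPM on average numbered 20, of which none rose and 13 fell, a share of 65.0%. Among all 2272 genes at this level, 28.5% rose and 23.1% fell. Of the 16 tested members under 100 CPM, 4 rose and 3 fell, which is 25% and 18.8% beside 10.9% and 12.2% of all 12399 genes at this level. The groups of 3 libraries did not overlap for 16 members lower and 6 higher with IL-33, beside 19.5% and 19.4% of all genes and 38.9% in either direction. In bulk RNA, fewer cells of a type and less RNA per cell cannot be told apart, which holds for every value here.

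H2-K1 and H2-D1 encode the classical class I heavy chains of this strain, H-2K and H-2D. H2-K1 (chromosome 17: 33996017 to 34000347, GRCm38) had 3795, 3675 and 3803 CPM in control and 3644, 3586 and 3581 CPM in IL-33 libraries. All IL-33 values lay below all control values, but by little, with a log2 fold change of -0.06 (95% interval from -0.10 to -0.02, adjusted p = 0.0112 with edgeR). H2-D1 went from 3167 ± 43.0 CPM to 3039 ± 87.2 CPM (SD, n = 3), with groups that overlapped and the same log2 fold change of -0.06 (adjusted p = 0.0172, edgeR). Both calls were lost when any of 3 libraries was left out.

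The heavy chains of the H2-Q group, whose products include the Qa-2 molecules, fell more. H2-Q7 (chromosome 17: 35439155 to 35443773) showed the largest fall among the heavy chains, with 708, 656 and 636 CPM in control and 566, 519 and 543 CPM in IL-33 libraries. The groups were well apart, with a log2 fold change of -0.30 (95% interval from -0.37 to -0.22, adjusted p = 3.9e-06, edgeR). H2-Q6 went from 757 ± 19.6 to 673 ± 13.1 CPM (log2 fold change of -0.17) and H2-Q4 from 338 ± 13.2 to 288 ± 12.4 CPM (log2 fold change of -0.23), both SD with n = 3 and both with groups that did not overlap. Genes of this group are nearly identical over long stretches, so that reads may have been split between them. Summed over the 8 H2-Q genes in the table, the level was 1957 ± 52.8 CPM in control and 1685 ± 42.9 CPM in IL-33 libraries (SD, n = 3), a log2 fold change of -0.22 (adjusted p = 2.3e-14, edgeR). Of the H2-Q genes outside the 37 members, H2-Q5 fell as well, from 162 ± 2.86 to 143 ± 1.34 CPM (SD, n = 3), a log2 fold change of -0.18 (adjusted p = 2.8e-05, edgeR). H2-Q2 and H2-Q10 went the other way, at 0.63 and 0.19 on the log2 scale. H2-Q2 was low, at 2.25 ± 0.387 and 3.49 ± 0.226 CPM, and H2-Q10, at 30.5 ± 3.50 and 34.8 ± 1.85 CPM (SD, n = 3), had overlapping groups.

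The heavy chains of the H2-T and H2-M groups are non-classical and bind a narrow range of peptides or none. H2-T23 encodes Qa-1, the ligand of CD94/NKG2 receptors, and went from 650 ± 22.01 to 619 ± 10.07 CPM (SD, n = 3) with overlapping groups (log2 fold change of -0.07, adjusted p = 0.0418, edgeR), a call that was lost in 7 of 13 other fits. H2-T24 fell from 47.1 ± 3.68 to 40.7 ± 0.770 CPM (SD, n = 3), a log2 fold change of -0.21 (adjusted p = 0.00477, edgeR), which was not called without control replicate 3 (-0.14, adjusted p = 0.119). H2-T22, a ligand of some γδ T cell receptors, had 316, 361 and 373 CPM in control and 373.7, 378 and 377 CPM in IL-33 libraries. These groups touched without overlap, and the difference was not called (log2 fold change of 0.10, adjusted p = 0.216, edgeR). Summed over the 6 H2-T genes in the table the log2 fold change was -0.02 (adjusted p = 0.617, edgeR), with values of 1112 ± 49.8 and 1098 ± 10.9 CPM (SD, n = 3). H2-M3, which presents formylated peptides, was at 34.3 ± 0.786 and 34.4 ± 1.64 CPM (SD, n = 3), with a 95% interval of the log2 fold change from -0.13 to 0.13. The exons of H2-T22 share 29.4% of their length with an antisense gene, and those of H2-Q4 share 19.1%.

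B2m, the light chain that every class I heavy chain needs, lies apart from the MHC on chromosome 2 (122147686 to 122153083). Its level was 3119, 3200.1 and 3133 CPM in control and 2772, 2733 and 2791 CPM in IL-33 libraries. The 3 IL-33 values were close to each other and all below control, with a log2 fold change of -0.19 (95% interval from -0.23 to -0.15, adjusted p = 5.1e-14, edgeR). The summed heavy chains H2-K1, H2-D1, H2-Q and H2-T, 16 genes in all, went from 9994 ± 55.3 to 9425 ± 132 CPM (SD, n = 3), a log2 fold change of -0.08 (adjusted p = 1.1e-05, edgeR). The 95% intervals of the fold changes of B2m and of this sum did not overlap, since the latter ran from -0.12 to -0.05. Of the 6 members with the spaced pair in the stretches printed above, 4 fell (B2m, H2-K1, H2-D1 and H2-Q7), H2-M3 was not called and H2-Aa was not tested. H2-Q4 and H2-Q6, printed above without the pair, fell as well, at log2 fold changes of -0.23 and -0.17. Of all tested members 44.4% fell, and of all genes tested 13.9%. Whether the pair bears on these changes was not tested.

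**Figure D3:**
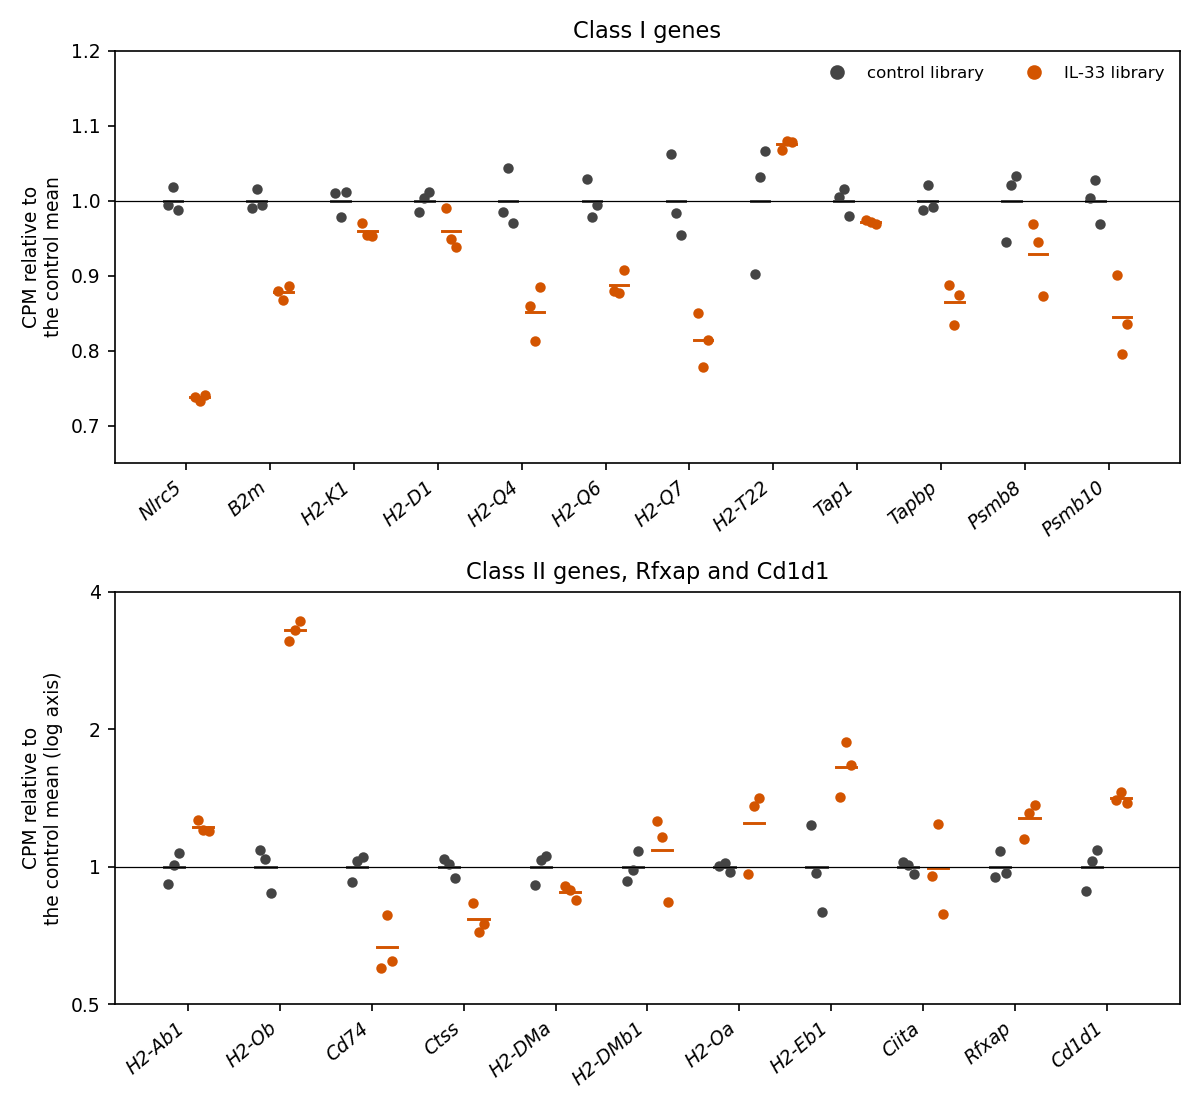
CPM of selected members in each library relative to the mean of the 3 control libraries of that gene, for class I genes above on a linear axis that does not start at 0 and for class II genes, Rfxap and Cd1d1 below on a log axis, with a point for each library and a short line at the mean of each group. The IL-33 libraries lie close together for Nlrc5, near 0.738 of control, and those of H2-Ob stand farthest above control, while the groups overlap for H2-D1, Psmb8, H2-DMb1, H2-Oa and Ciita.

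Of the genes for transport and trimming, Tapbp and Erap1 fell and the transporter subunits did not pass the test. Tapbp encodes tapasin, which bridges the transporter and the class I molecule. It had 432, 447 and 434 CPM in control and 389, 365 and 382 CPM in IL-33 libraries, groups that were well apart (log2 fold change of -0.21, 95% interval from -0.27 to -0.15, adjusted p = 3.4e-09, edgeR). Erap1, the aminopeptidase that trims peptides in the endoplasmic reticulum, went from 180.2 ± 2.14 to 162 ± 2.51 CPM (SD, n = 3), a log2 fold change of -0.16 (adjusted p = 2.6e-04, edgeR). Tap1, with the most reads of these 4 genes, had 492, 497 and 479 CPM in control and 476, 475 and 474 CPM in IL-33 libraries. All of its IL-33 values lay below control, but by little, and the test did not call it (log2 fold change of -0.04, 95% interval from -0.10 to 0.01, adjusted p = 0.276, edgeR). Tap2 was at 148 ± 7.33 and 145 ± 2.71 CPM (SD, n = 3). Whether reads were counted by strand is not stated, and Erap1 shares 11.5% of its exon length with Cast on the opposite strand, while Tapbp shares 24.9% with an antisense gene.

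The immunoproteasome is the form of the proteasome in which 3 catalytic subunits are replaced by Psmb8, Psmb9 and Psmb10. Psmb10 had 128, 131 and 124 CPM in control and 115, 102 and 107 CPM in IL-33 libraries. The groups did not overlap, and it showed the largest fall of these genes (log2 fold change of -0.24, 95% interval from -0.32 to -0.16, adjusted p = 6.3e-07, edgeR). Psmb9 fell from 131 ± 3.41 to 118 ± 3.37 CPM (SD, n = 3), a log2 fold change of -0.15 (adjusted p = 0.00111, edgeR), and Psmb8 was not called at 79.5 ± 3.79 and 73.9 ± 4.01 CPM (log2 fold change of -0.11, adjusted p = 0.0667, edgeR). Their counterparts in the standard proteasome, Psmb5, Psmb6 and Psmb7, had log2 fold changes of -0.02, -0.01 and 0.00 and were not called. The ratio of Psmb9 to Psmb6 in CPM per kb was 0.976 to 1.05 in control and 0.892 to 0.971 in IL-33 libraries, without overlap. The ratios of Psmb8 to Psmb5 and of Psmb10 to Psmb7 overlapped between the groups.

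Psme1 and Psme2, the subunits of the PA28 activator that widens the gate of the proteasome, were not called. Psme1, the member of this role with the highest level, had 167, 168 and 168 CPM in control and 169, 166 and 152 CPM in IL-33 libraries. The groups overlapped, with the lowest value in IL-33 replicate 3. Psme2 was at 112 ± 5.80 and 106 ± 2.46 CPM (SD, n = 3, log2 fold change of -0.08, adjusted p = 0.12, edgeR).

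Of the chaperones that fold class I molecules, calreticulin fell. Calr had 1089, 1077 and 1078 CPM in control and 1034, 979 and 998 CPM in IL-33 libraries, without overlap (log2 fold change of -0.11, 95% interval from -0.15 to -0.06, adjusted p = 1.8e-04, edgeR). Its membrane-bound relative calnexin (Canx) was at 528 ± 6.00 and 550 ± 15.9 CPM and the disulfide isomerase ERp57 (Pdia3) at 750 ± 24.2 and 755 ± 12.0 CPM (SD, n = 3), and neither was called. These proteins fold many glycoproteins besides class I molecules.

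Nlrc5, the transactivator of the class I genes, fell most of the class I pathway. It lies on chromosome 8 (94434356 to 94527272) and had 324, 332 and 322 CPM in control and 241, 239 and 241 CPM in IL-33 libraries. The libraries of a group were close to each other and the groups far apart, with a log2 fold change of -0.44 (95% interval from -0.50 to -0.38, adjusted p = 5.6e-23, edgeR), a fold change of 0.738. Ciita, the transactivator of the class II genes, had 36, 34 and 35 counts in control and 34, 43 and 29 counts in IL-33 libraries. Its groups overlapped, and at this depth the 95% interval of its log2 fold change ran from -0.58 to 0.56. Nlrc5 thus stood at 33.3 CPM per kb and Ciita at 0.173 CPM per kb.

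The RFX complex has the subunits Rfx5, Rfxank and Rfxap and binds the X box. Rfxap had 196, 213 and 206 counts in control and 240, 267 and 294 counts in IL-33 libraries, higher in all 3 (log2 fold change of 0.35, 95% interval from 0.12 to 0.58, adjusted p = 0.0162, edgeR). This call was lost with DESeq2 and without any of 4 single libraries. Rfx5 was at 25.3 ± 0.485 and 25.3 ± 0.991 CPM and Rfxank at 11.2 ± 1.22 and 11.8 ± 0.862 CPM (SD, n = 3), and neither was called. Rfxank shares 33.8% of its exon length with Nr2c2ap on the opposite strand, which had 85 counts over all libraries. Rfx5 shares 26.8% with an antisense gene, which had 12 counts over all libraries.

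Among the class II chains, H2-Ab1 was plainly present and rose, while H2-Aa, the α chain with which it pairs, was near the limit of detection. H2-Ab1 (chromosome 17: 34257689 to 34269419) had 483, 509 and 584 counts in control and 677, 626 and 659 counts in IL-33 libraries, or 22.8, 25.05 and 26.6 CPM against 31.5, 29.9 and 29.7 CPM. All IL-33 values lay above control, with a log2 fold change of 0.29 (95% interval from 0.14 to 0.44, adjusted p = 0.00123, edgeR). H2-Aa had 4, 10 and 10 counts in control and 2, 5 and 4 counts in IL-33 libraries, which overlap and were too few to be tested. The ratio of H2-Ab1 to H2-Aa in CPM per kb was 75.3 to 179 in control and 185 to 501 in IL-33 libraries, and rests on those few counts of H2-Aa. H2-Eb1, the β chain of I-E, had 12, 9 and 8 counts in control and 14, 18 and 17 counts in IL-33 libraries and was not called (log2 fold change of 0.72, 95% interval from -0.19 to 1.63, adjusted p = 0.255, edgeR). H2-Ea, the α chain of I-E, whose gene is defective in C57BL/6 mice, was not analysed here.

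Of the genes for class II peptide loading, H2-Ob rose most of all members and Cd74 fell most. H2-Ob, the β chain of H2-O, lies on chromosome 17 (34238903 to 34254414) and had 12, 11 and 10 counts in control and 35, 36 and 40 counts in IL-33 libraries. The groups were far apart at 0.521 ± 0.0573 and 1.71 ± 0.0863 CPM (SD, n = 3), a log2 fold change of 1.71 (95% interval from 0.98 to 2.44, adjusted p = 1.1e-04, edgeR). Its level stayed low, at a few times the limit of detection in control libraries. The control counts of H2-Ob lay near the minimum count of 10 required for testing. It met that requirement through the IL-33 libraries, where it is high. Tested without a filter on low counts, its log2 fold change was 1.71 (adjusted p = 8.5e-05, edgeR). H2-Oa, the α chain of H2-O, was not called at 1.69 ± 0.0406 and 2.10 ± 0.413 CPM (SD, n = 3, log2 fold change of 0.32, 95% interval from -0.21 to 0.84). The ratio of H2-Ob to H2-Oa in CPM per kb was 0.0726 to 0.0872 in control and 0.196 to 0.262 in IL-33 libraries. Exons of H2-Ob, H2-Ab1, B2m and Cd1d1 overlapped those of no other annotated gene.

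Cd74, the invariant chain, had 111, 118 and 130 counts in control and 73, 93 and 78 counts in IL-33 libraries. All IL-33 values were lower, with a log2 fold change of -0.58 (95% interval from -0.92 to -0.24, adjusted p = 0.00543, edgeR), just short of the fold change threshold. Ctss, the cathepsin that cuts the invariant chain, had 15.97, 15.5 and 14.5 CPM in control and 12.8, 11.0 and 11.5 CPM in IL-33 libraries, without overlap (log2 fold change of -0.38, 95% interval from -0.59 to -0.17, adjusted p = 0.00322, edgeR). H2-Ab1 and Cd74 thus went opposite ways, and their ratio in CPM per kb was 2.82 to 2.94 in control and 4.40 to 6.06 in IL-33 libraries. H2-DMa had 19.2, 21.7 and 22.2 CPM in control and 19.1, 18.7 and 17.8 CPM in IL-33 libraries, values that nearly touch and were not called (adjusted p = 0.108, edgeR). H2-DMb1, its partner, was at 5.26 ± 0.409 and 5.71 ± 1.15 CPM (SD, n = 3) and was not called. H2-DMa shares 10.4% of its exon length with Brd2, an abundant gene on the opposite strand.

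Cells that typically carry class II molecules had been in the cultures before the sort, so markers of such cells are given beside these values. Of 16 dendritic cell markers 14 were in the table, where they summed to 740 to 756 CPM in control and 724 to 753 CPM in IL-33 libraries, mostly Irf8, which activated T cells also express. Without Irf8 the sums were 94.6 to 95.6 and 58.7 to 63.0 CPM, with Itgax, which some T cells also express, at 54.6 ± 2.07 and 25.98 ± 1.59 CPM (SD, n = 3). Flt3, Siglech, Ccl17 and Ccl22 had at most 10 counts in every library. Xcr1, at 223 to 282 counts, and Zbtb46, at 50 to 72 counts, were detected in every library and not called. Also not called were Irf8, Cd86 (15 to 32 counts) and Clec10a (2 to 15 counts). Of the 10 markers tested Batf3 and Fscn1 were higher and Itgax, Cd83 and Itgae lower with IL-33. Of 12 macrophage and monocyte markers 9 were in the table and summed to 29.9 to 33.3 CPM in control and 33.8 to 37.6 CPM in IL-33 libraries. Nearly all of this was Cd68, which was higher with IL-33 (log2 fold change of 0.19, adjusted p = 0.0256, edgeR), and without it the sums were 1.08 to 2.33 and 1.21 to 3.11 CPM. Of 13 B cell markers 10 were in the table, at 17.7 to 18.2 and 18.3 to 23.1 CPM, none of the 4 tested was called, and Ebf1 and Blnk had at most 10 counts everywhere. Of 8 mast cell and basophil markers 7 were in the table and summed to 38.6 to 41.8 CPM in control and 27.04 to 31.6 CPM in IL-33 libraries, with 2 of the 3 tested lower. The part of such cells in the levels of class II members was not tested.

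Cd1d1, which presents lipids to NKT cells, had 236, 262 and 299 counts in control and 377, 384 and 384 counts in IL-33 libraries. In CPM these were 11.1, 12.9 and 13.6 against 17.5, 18.3 and 17.3, higher in every IL-33 library. The log2 fold change was 0.50 (95% interval from 0.29 to 0.70, adjusted p = 4.5e-05, edgeR), a fold change of 1.41. Like B2m it lies outside the MHC, on chromosome 3 (86995834 to 86999441).

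By position, 21 of the members lie on chromosome 17, between Tapbp and H2-M3 (33915899 to 37274484). Of the 20 tested there 2 rose and 9 fell, and of the 16 on other chromosomes 2 rose and 7 fell. The same stretch holds 175 other genes of the table, of which 98 were tested, 5 rose and 26 fell, with a median log2 fold change of -0.12. Of all genes tested 13.6% rose and 13.9% fell. Of the 175 genes, 11 belong to the wider list of antigen presentation genes described next.

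**Figure D4:**
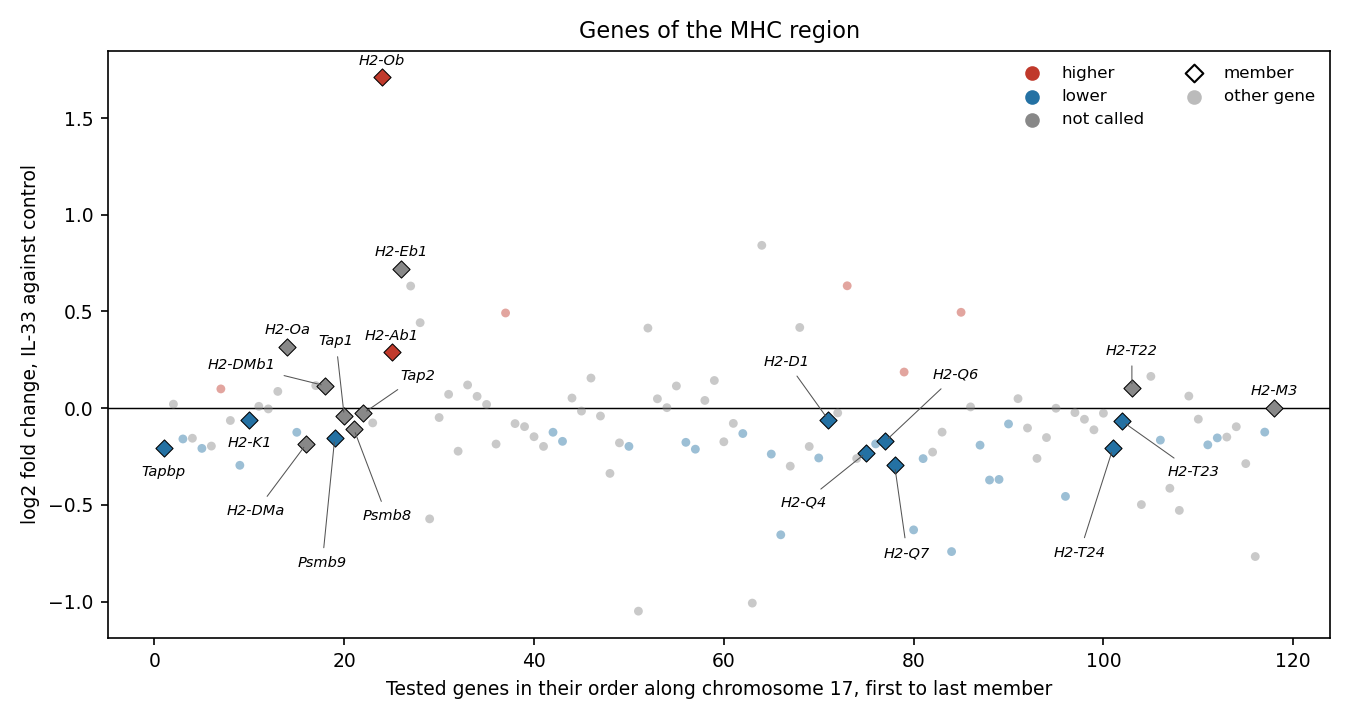
Log2 fold change with IL-33 of the tested genes between Tapbp and H2-M3 on chromosome 17, in their order along the chromosome, with members as diamonds, other genes as dots and colour for the call at an adjusted p of 0.05. Of the 98 other genes 69 lie below 0, as do 13 of the 20 members, and H2-Ob stands alone at 1.71.

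A wider list of antigen presentation genes outside the 37 members held 60 genes of the table, of which 54 were tested. Of these 13 rose, 12 fell and 29 were not called, with a median log2 fold change of 0.01. The shares were 24.1% higher and 22.2% lower, beside 13.6% and 13.9% of all genes. Past both thresholds were H2-Q2, Ifi30, Ifngr2 and Socs1. Ifngr2, a chain of the interferon-γ receptor, had 177, 168 and 182 counts in control and 95, 83 and 140 counts in IL-33 libraries, all lower (log2 fold change of -0.76, 95% interval from -1.06 to -0.46, adjusted p = 2.4e-05, edgeR). Ifngr1, the other chain of this receptor, rose by 0.22 on the log2 scale.

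Socs1, an inhibitor of JAK kinases, had 1009, 977 and 1046 counts in control and 543, 497 and 656 counts in IL-33 libraries, a log2 fold change of -0.87 (95% interval from -1.001 to -0.734). Irf1, a transcription factor of the interferon-γ response that acts on many class I genes, fell by 0.17 on the log2 scale, and Jak1 rose by 0.16. Ifi30, a thiol reductase of the class II pathway, had 22, 30 and 13 counts in control and 11, 1 and 7 counts in IL-33 libraries (log2 fold change of -1.79, 95% interval from -2.77 to -0.81). Ifi30 reached the minimum count for testing only through the control libraries. H2-Q2, a class I heavy chain gene near H2-Q7, had 43, 41 and 59 counts in control and 74, 69 and 83 counts in IL-33 libraries (log2 fold change of 0.63, adjusted p = 0.0204, edgeR). In each of these genes the groups did not overlap. Other genes that rose were the aminopeptidases Lnpep (0.31) and Npepps (0.33), the class I-like Mr1 (0.24) and the ubiquitin ligase gene March8 (0.27), all as log2 fold changes.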

How the data were processed

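Of each library the authors deposited raw read counts per gene without normalization, and 1 column of signal named as a mean of size-factor-scaled counts, which was not used. The submitters' processing notes list Bowtie 0.12.2 and the build mm8 without a role. The labels name an Illumina TruSeq kit and the study's methods a NEBNext Ultra kit. How reads were counted, with which annotation and strand, is not given in the sources used here.

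Samples were grouped by their labels, 3 libraries each. Genes were filtered with filterByExpr (minimum count 10, minimum total 15), which kept 14671 genes (the others held 0.11% of counts), scaled by TMM and tested by quasi-likelihood in edgeR (robust fit, no covariates, two-sided, Benjamini-Hochberg adjustment). An adjusted p of 0.05 and a fold change of 1.5 were the thresholds, after the study. The common biological coefficient of variation was 0.0468. CPM use TMM-scaled library sizes, and SDs are over n = 3. Exon lengths and positions are those of GENCODE M21 (GRCm38), matched by Ensembl identifier for 26072 genes, and not those of the build used for counting. Libraries of a group differed by more than counting noise (chi-square per gene of 2.64 to 3.67), so none was counted as a duplicate.

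The members and lists were chosen with earlier results of these data known. Named by rule were members past both thresholds and, within each role, the member of the highest level and the called member of the largest change. Values of further members and genes were added after they had been seen. Some genes of the lists are not reported here. Alternatives were DESeq2, limma-voom, other scalings and filters, a test against the fold change, a replicate block, sums of near-identical genes and each library left out. The script was tested on simulated data. Fits used DESeq2 1.42.0, edgeR 4.0.16 and limma 3.58.1 under R 4.3.3.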

Additional observations from a re-analysis of the deposited data

How the results depend on the processing

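Over 13 other fits, 15 of the 20 called members kept their call and direction in every one, among them Nlrc5, B2m, H2-Q7, H2-Ob, Cd74, H2-Ab1 and Cd1d1, and all 20 kept their direction. The count of members past both thresholds, 1, became 2 with limma-voom, with total counts as library sizes (chosen after the data were seen) and with the replicate block, and 1 to 2 when single libraries were left out (2 without control replicate 1 or IL-33 replicate 2). The second member was Cd74, at a log2 fold change of -0.59, -0.60, -0.59, -0.64 and -0.71 in these 5 fits and of -0.51 at its smallest, without IL-33 replicate 1. Members called lower were 12 to 19 and those called higher 3 to 4 when single libraries were left out. H2-K1 lost its call without control replicate 3 (adjusted p of 0.0811) and without IL-33 replicate 2 (0.0715) or 3 (0.0967), and so did H2-D1 (0.0955, 0.125 and 0.227). H2-T23 lost it with DESeq2 (0.0514), without the filter (0.09) and without control replicate 2 (0.311) or 3 (0.0785) and without IL-33 replicate 1 (0.212) or 2 (0.128), and H2-T24 without control replicate 3 (0.119). Rfxap lost it with DESeq2 (0.0532) and without control replicate 1 (0.0627), without control replicate 3 (0.0571), and without IL-33 replicate 2 (0.0511) or 3 (0.0836). Calls were gained by H2-T22 without the filter (0.00758) and without control replicate 3 (0.00107), by Psmb8 with total counts (0.0272) and without control replicate 1 (0.0161), and by Psme2 (0.0277) and H2-DMa (0.0486) without control replicate 1. The cause of these changes was not tested.

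Deviations of control and IL-33 libraries with the same replicate number correlated at 0.0116, 0.00317 and 0.0107. Those with different numbers correlated at -0.0138 to 0.00287. Correlations this small gave no sign of pairing by number, though they cannot exclude it. With the replicate number as a block 5 members were called higher, 13 lower and 2 past both thresholds. H2-K1 (adjusted p = 0.0744), H2-D1 (0.0982) and H2-T23 (0.0792) were then not called and H2-T22 was (0.0236), all by edgeR.

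Values that changed sign belonged to members not called. With total counts as library sizes, which moved the median of all genes to -0.02, the log2 fold change of H2-M3 was -0.0155, that of Pdia3 -0.00866 and that of Rfx5 -0.0153. When single libraries were left out, log2 fold changes ran from -0.196 to 0.135 for Ciita, from -0.0278 to 0.0224 for Rfx5, from -0.00946 to 0.0352 for Pdia3, from -0.0359 to 0.0268 for H2-M3, from -8.8e-04 to 0.154 for Rfxank, from -7.9e-04 to 0.275 for H2-DMb1 and from -0.0739 to 0.00478 for Psme1. With the H2-T genes replaced by their sum, H2-T22 stood at -0.0192, the value of that sum, and with all H2-K1, H2-D1, H2-Q and H2-T genes summed at -0.0847.

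H2-Eb1 has no adjusted p with DESeq2 or the stricter filter, which leave it out. The depth limits what can be said of H2-Aa, H2-Eb1, H2-Ob, H2-Oa and Ciita, whose counts in a library stayed low. H2-Eb1 and H2-Ob reached the minimum count for testing only through the IL-33 libraries.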

Other observations

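Among the other genes between Tapbp and H2-M3 on chromosome 17, Tnf, which encodes tumour necrosis factor, fell by 0.65 on the log2 scale (adjusted p = 2.0e-07 with edgeR's quasi-likelihood test), and Ier3, an early response gene, rose by 0.50 (adjusted p = 5.5e-05, edgeR). Of the subunits of NF-Y, the factor that binds the Y box, Nfya and Nfyc fell by 0.15 and 0.18 on the log2 scale, and Nfyb was not called at 0.11.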
